A study of Mus musculus with 4 samples.

Results

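The cytosolic ribosomal protein genes were followed in the chromatin RNA of mouse myotubes given a glucocorticoid. They encode the proteins of the small (40S) and large (60S) ribosomal subunits outside mitochondria. Members were chosen by symbol (Rpl, Rps, Rplp0 to Rplp2 and Rpsa, with the S6 kinase genes left out) and by a minimum of 10 counts in every library. Of 23282 features in the deposited table, 86 met the symbol rule and 76 met the minimum as well, 31 from the 40S subunit and 45 from the 60S subunit. The cells were C2C12, an established mouse muscle line, differentiated into myotubes and deprived of steroids in both groups. The vehicle group and the dexamethasone group, the latter given 1 µM of this synthetic agonist of the glucocorticoid receptor, were both treated for 2 h, with 2 libraries each. RNA that remained bound to the chromatin pellet of isolated nuclei was sequenced, so the values follow nascent and retained transcripts and not the pool of cytoplasmic messenger RNA. A single line stands for muscle here, and the labels do not say whether replicates were separate cultures, so p-values measure only the spread between these libraries, which may be technical.

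Each ribosome needs close to equal amounts of its proteins, and their genes are known as a group of constitutively active, mostly short genes. Their messenger RNAs begin with an uninterrupted stretch of pyrimidines, the 5′ terminal oligopyrimidine (TOP) motif, through which mTOR and LARP1 set their translation. Many of their introns carry small nucleolar RNAs (snoRNAs), which guide the modification of ribosomal RNA, and processed pseudogenes of these genes are spread over the genome. In muscle, glucocorticoids are known for a loss of protein mass in which synthesis falls and breakdown rises.

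Runs of pyrimidines near the annotated start of transcription were visible in the RefSeq windows of many members. Of the 76 genes, 58 had a window in the RefSeq table (build GRCm38.p6, 68 windows of 300 bases, 250 before and 50 after the annotated start). An unbroken run of at least 8 C or T within 20 bases of the start, read on the coding strand, was present in 28 of the 68 windows (41.2%), against 2057 of 12910 windows (15.9%) of all tested protein-coding genes, members included. The run did not have to begin at the start, so the count is of runs near the start and not of TOP motifs. The first 6 windows printed here show such a run in genes on which the results turn, and the last 2 show genes without it. Each is 30 bases long, 15 on each side of the annotated start, 5′ to 3′ on the coding strand, with the longest run of pyrimidines in capitals.
Rpl27a, chr7:109519180-109519209, plus strand: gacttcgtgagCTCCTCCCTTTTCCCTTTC
Rpl35, chr2:39005117-39005146, minus strand: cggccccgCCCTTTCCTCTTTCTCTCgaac
Rpl13a, chr7:45128731-45128760, minus strand: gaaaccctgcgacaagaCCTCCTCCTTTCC
Rps10, chr17:27635230-27635259, minus strand: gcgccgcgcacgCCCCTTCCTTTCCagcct
Rpl4, chr9:64173372-64173401, plus strand: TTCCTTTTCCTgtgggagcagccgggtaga
Rplp2, chr7:141447636-141447665, plus strand: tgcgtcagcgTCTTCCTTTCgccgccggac
Rpl7l1, chr17:46782642-46782671, minus strand: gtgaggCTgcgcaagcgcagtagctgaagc
Rpl11, chr4:136053379-136053408, minus strand: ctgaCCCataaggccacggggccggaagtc
Within these windows the run reached 19 bases in Rpl27a and 18 in Rpl35, while the longest in Rpl7l1, a copy of Rpl7, was 2 bases and in Rpl11 3 bases. In Rpl4 the run ended before the annotated start, and in Rpl13a it began after the start.

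Other motifs were counted over the whole 300-base windows on both strands, whether or not they overlapped one another. The core of ETS factor sites, CCGGAAG, was in 24 of 68 member windows (35.3%) and in 16.3% of windows of tested protein-coding genes. AAGATGGC, the core of YY1 sites, was in 10.3% against 4.15%, and TATAAA, the TATA box, was in 10.3% against 7.35%. GGGCGG, the GC box of Sp1, was in 63.2% against 60.7%. A full glucocorticoid receptor site, AGAACA and TGTTCT with 3 bases between them, was in 0 of the 68 windows and in 1 of the 12910 windows. A single arm of that site, AGAACA, was in 8 member windows (11.8%) against 12.6%. These are matches of letters in a short window and not measured binding.

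Total counts ran from 19631435 in vehicle 1 to 88596296 in dexamethasone 2, and the median member had 222 and 1078 counts in these libraries. All 13 myotube markers had at least 10 counts in every library, and their summed CPM (counts relative to the total of their library, here with TMM, a factor that corrects for differences in library composition) was 130220 and 46121 in vehicle 1 and 2 and 125820 and 45083 in dexamethasone 1 and 2. Most of this sum was Ttn, and the other 12 markers summed to 12134 and 5067 CPM in vehicle and 12510 and 5155 CPM in dexamethasone. The summed level was thus higher in both libraries numbered 1, although Mymk was nearly equal between the numbers (176 and 173 CPM in vehicle, 208 and 208 CPM in dexamethasone) and Tnnt3 differed little. The 8 markers of undifferentiated or cycling cells summed to 61.1 and 66.8 CPM in vehicle and 48.0 and 56.5 CPM in dexamethasone, so both treated libraries were under both controls. Without Pax7, a gene of muscle stem cells that had 32.0 and 39.0 CPM in vehicle and 17.9 and 22.9 CPM in dexamethasone and did not pass the test, the other 7 summed to 29.1 and 27.8 CPM in vehicle and 30.0 and 33.6 CPM in dexamethasone. The part of these markers in the results below was not tested. In such bulk samples fewer cells of a type and less RNA per cell cannot be told apart. The glucocorticoid response was present: Fkbp5, the gene of a steroid receptor co-chaperone, went from 21.4 and 21.6 CPM in vehicle to 1018 and 696 CPM in dexamethasone.

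The 76 genes together took 0.123% (95% Wilson interval 0.121% to 0.124%) of the counts of vehicle 1 and 0.130% (0.129% to 0.131%) of vehicle 2. In dexamethasone they took 0.119% (0.118% to 0.120%) and 0.121% (0.120% to 0.122%). The intervals treat reads as independent counts and leave out variation between libraries. The reads had no molecular identifiers, so duplicates were not told apart and the intervals may be too narrow. Both dexamethasone libraries were lower than both vehicle libraries, with a difference of means, dexamethasone minus vehicle, of −0.00624 percentage points (0.126% ± 0.00520 against 0.120% ± 0.00151, SD, n = 2 per group). With 2 libraries against 2, a two-sided exact permutation test gave p = 0.333, the smallest value this design allows. On the TMM scale the same sum was 1290 and 1202 CPM in vehicle and 1287 and 1148 CPM in dexamethasone, where the groups overlapped and libraries with the same number lay closest together.

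The question of the comparison was which ribosomal protein genes changed their chromatin RNA within 2 h of dexamethasone. No member passed the test: edgeR's quasi-likelihood test with Benjamini-Hochberg adjustment called 0 of 76 members higher and 0 lower, while over all 13285 tested genes it called 5 (0.0376%) higher and 0 (0%) lower. The members with an unadjusted p under 0.05 were 0, against 768 of all tested genes (5.78%). The likelihood ratio test of edgeR, the Wald test of DESeq2 and limma-voom also called 0 members. These tests used the group only. With the replicate number added as a block, 1 member and 1681 of all tested genes (12.7%) were called, on 1 residual degree of freedom. The adjusted p of the members in the edgeR quasi-likelihood test by group only was 0.884 or higher. This does not show that the genes were unchanged. The 95% interval of the log2 fold change lay within −1 to 1 for 57 of the 76 members (75%), against 63.0% of all tested genes. Of the tested genes with at least 10 counts in every library, as in the members, the share was 67.5%.

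Fitted changes of the members lay close to 0. The median log2 fold change, dexamethasone over vehicle, was 0.01, with 40 members above 0, 36 below and an interquartile range of −0.06 to 0.10. Among the members named here the log2 fold change ran from −0.41 in Rpl5 to 0.43 in Rps29. The median of all tested genes was −0.00. Over other scalings, filters and tests the members' median ran from −0.03 to 0.03 and took either sign. The SD of the log2 fold changes was 0.160 over the members and 0.429 over the 9678 tested genes within the members' range of CPM. An absolute log2 fold change over 0.5 was reached by 1 of the 76 members (1.32%), against 10.3% of the genes in that range. Small spread was not particular to the members. The SD was 0.157 in mitochondrial ribosomal protein genes (1.33% of genes over 0.5) and 0.0976 in proteasome subunit genes (0% over 0.5). The 40S genes had a median of 0.03 and the 60S genes one of −0.01.

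**Figure D1:**
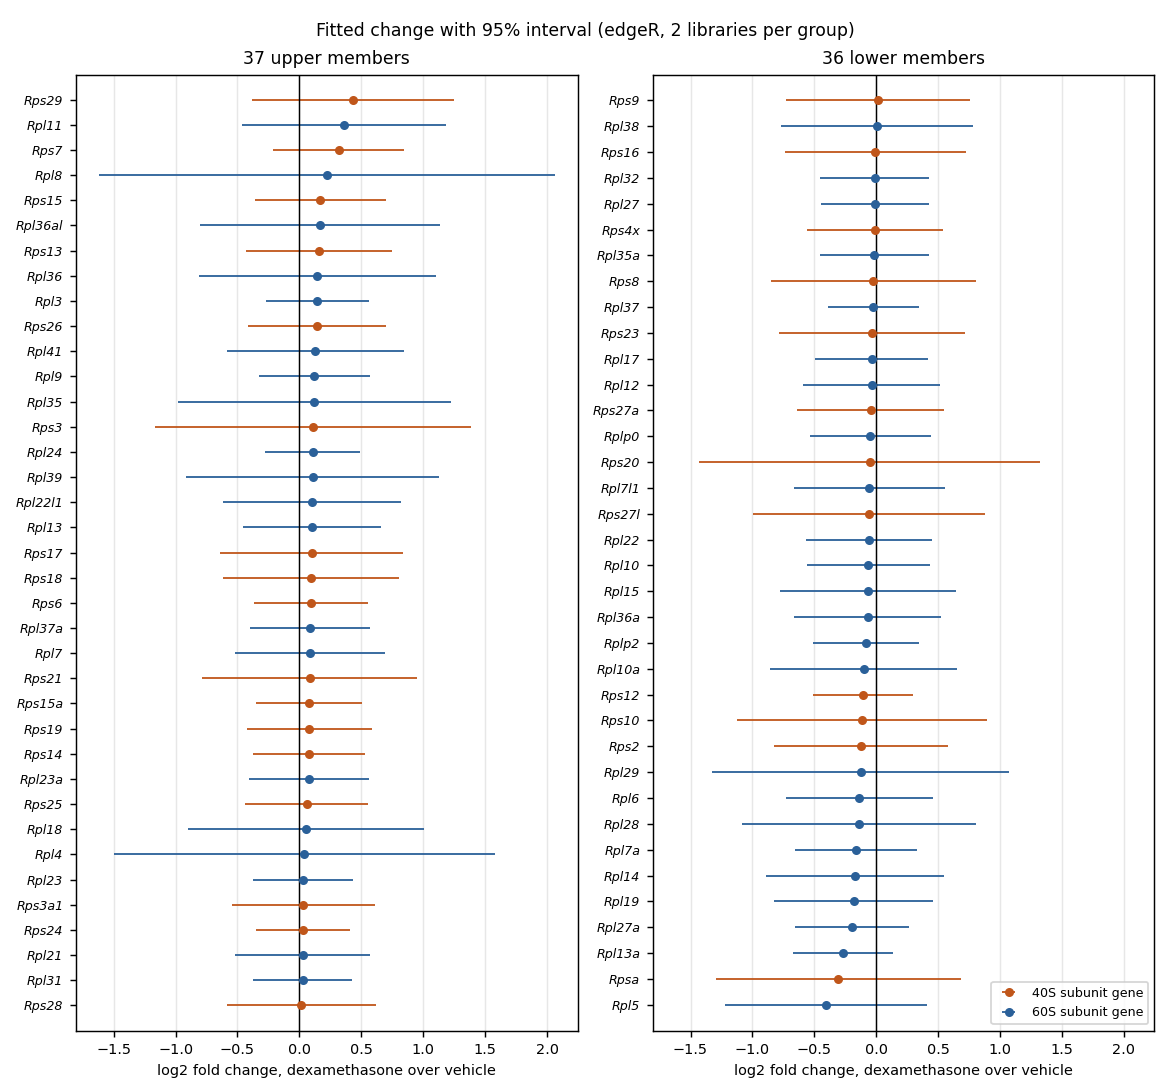
Fitted log2 fold change (dexamethasone over vehicle, x axis) of 73 of the 76 members, sorted, with the upper 37 on the left and the lower 36 on the right. Points are edgeR estimates from 2 libraries per group, bars are 95% intervals, and colour marks the subunit. Every bar drawn crosses 0, from Rpl5 at −0.41 to Rps29 at 0.43, and that of Rpl8 (−1.62 to 2.06) is among the widest.

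Libraries that did not overlap between the groups were counted next. In 7 members (9.21%) both treated libraries exceeded both controls, against 1993 of all tested genes (15%), and in 5 (6.58%) both were under them, against 1713 (12.9%). The 7 were Rps29, Rps7, Rps15, Rps26, Rps6, Rpl24 and Rpl23a, and the 5 included Rpl13a and Rpl27a. Of the 40S members, 5 (16.1%) were above and 0 (0%) below. Of the 60S members, 2 (4.44%) were above and 5 (11.1%) below. The shares of all tested genes were 15% above and 12.9% below. With DESeq2 size factors 5 members were above and 6 below, against 13.9% and 13.9% of all tested genes. Upper quartile scaling gave 5 and 7 members, against 12.8% and 15.1% of all tested genes. Library size as the only scaling gave 0 and 7 members, against 11.3% and 13% of all tested genes. None of these members passed the test.

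Among genes of the small subunit, Rps29 (ENSMUSG00000034892), which encodes a zinc-binding protein of the 40S head, had 1.56 and 2.13 CPM in vehicle and 2.43 and 2.57 CPM in dexamethasone. Both treated libraries were above both controls, on 29 to 240 counts per library. Its log2 fold change was 0.43 (SE 0.308, 95% interval −0.39 to 1.25, edgeR adjusted p = 1), and it was 0.23 without vehicle 1 and 0.69 without vehicle 2. Rps7 (ENSMUSG00000061477), whose product acts in 18S ribosomal RNA maturation, had 12.2 and 15.9 CPM in vehicle and 16.6 and 18.5 CPM in dexamethasone. These groups did not overlap either, although vehicle 2 and dexamethasone 1 nearly touched, and the log2 fold change was 0.32 (SE 0.200, edgeR adjusted p = 1). That of Rps7 was 0.14 without vehicle 1 and 0.53 without vehicle 2. Rps15 (ENSMUSG00000063457), needed for export of the 40S precursor from the nucleus, had 4.99 and 5.37 CPM in vehicle and 5.74 and 5.93 CPM in dexamethasone, again without overlap. The log2 fold change of Rps15 was 0.17 (SE 0.199, edgeR adjusted p = 1).

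Rpsa (ENSMUSG00000032518) encodes the 40S protein also known as the laminin receptor and had the highest mean CPM of all members, although Rpl3 exceeded it in dexamethasone 2. It had 133 and 92.5 CPM in vehicle and 120 and 62.1 CPM in dexamethasone. The libraries numbered 1 were the higher ones in both groups and the groups overlapped, with a log2 fold change of −0.31 (SE 0.374, edgeR adjusted p = 1) that became 0.09 without dexamethasone 2. Rps24, another abundant 40S gene, was steadier, at 48.2 and 55.8 CPM in vehicle and 51.4 and 54.7 CPM in dexamethasone. Its dexamethasone values lay inside the vehicle range.

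Among genes of the large subunit, Rpl13a (ENSMUSG00000074129), a 60S protein that also acts outside the ribosome in the translational control of inflammatory transcripts, showed little spread between libraries. It had 15.7 and 15.1 CPM in vehicle and 12.8 CPM in both dexamethasone libraries, so the groups were apart, with a log2 fold change of −0.27 (SE 0.153, edgeR adjusted p = 1). Rpl27a (ENSMUSG00000046364), a 60S protein, had 15.8 and 13.8 CPM in vehicle and 13.7 and 12.2 CPM in dexamethasone. Vehicle 2 and dexamethasone 1 were nearly equal, and the log2 fold change was −0.20 (SE 0.174, edgeR adjusted p = 1). It was −0.10 without vehicle 1, −0.12 without dexamethasone 2 and −0.28 without vehicle 2. Rpl19 (ENSMUSG00000017404), which takes part in a bridge between the subunits, had 9.97 and 14.6 CPM in vehicle and 10.4 and 11.3 CPM in dexamethasone. The dexamethasone values of Rpl19 were inside the vehicle range, and its log2 fold change of −0.18 (SE 0.242, edgeR adjusted p = 1) turned to 0.13 without vehicle 2.

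Rpl5 and Rpl11 bind the 5S ribosomal RNA, and the particle they form can hold MDM2 and so stabilise p53. Rpl5 (ENSMUSG00000058558) had 94.5 and 53 CPM in vehicle and 59.7 and 51.3 CPM in dexamethasone. Vehicle 1 stood apart from the other 3 libraries, and the log2 fold change of −0.41 (SE 0.308, edgeR adjusted p = 1) became 0.07 without it. Rpl11 (ENSMUSG00000059291) had 4.08 and 6.01 CPM in vehicle and 5.40 and 7.59 CPM in dexamethasone. The groups of Rpl11 overlapped, with a log2 fold change of 0.36 (SE 0.311, edgeR adjusted p = 1), and its library numbered 2 was higher than that numbered 1 in both groups, the opposite of Rpl5. The log2 fold change of Rpl11 was 0.09 without dexamethasone 2, 0.12 without vehicle 1, 0.59 without dexamethasone 1 and 0.69 without vehicle 2.

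**Figure D2:**
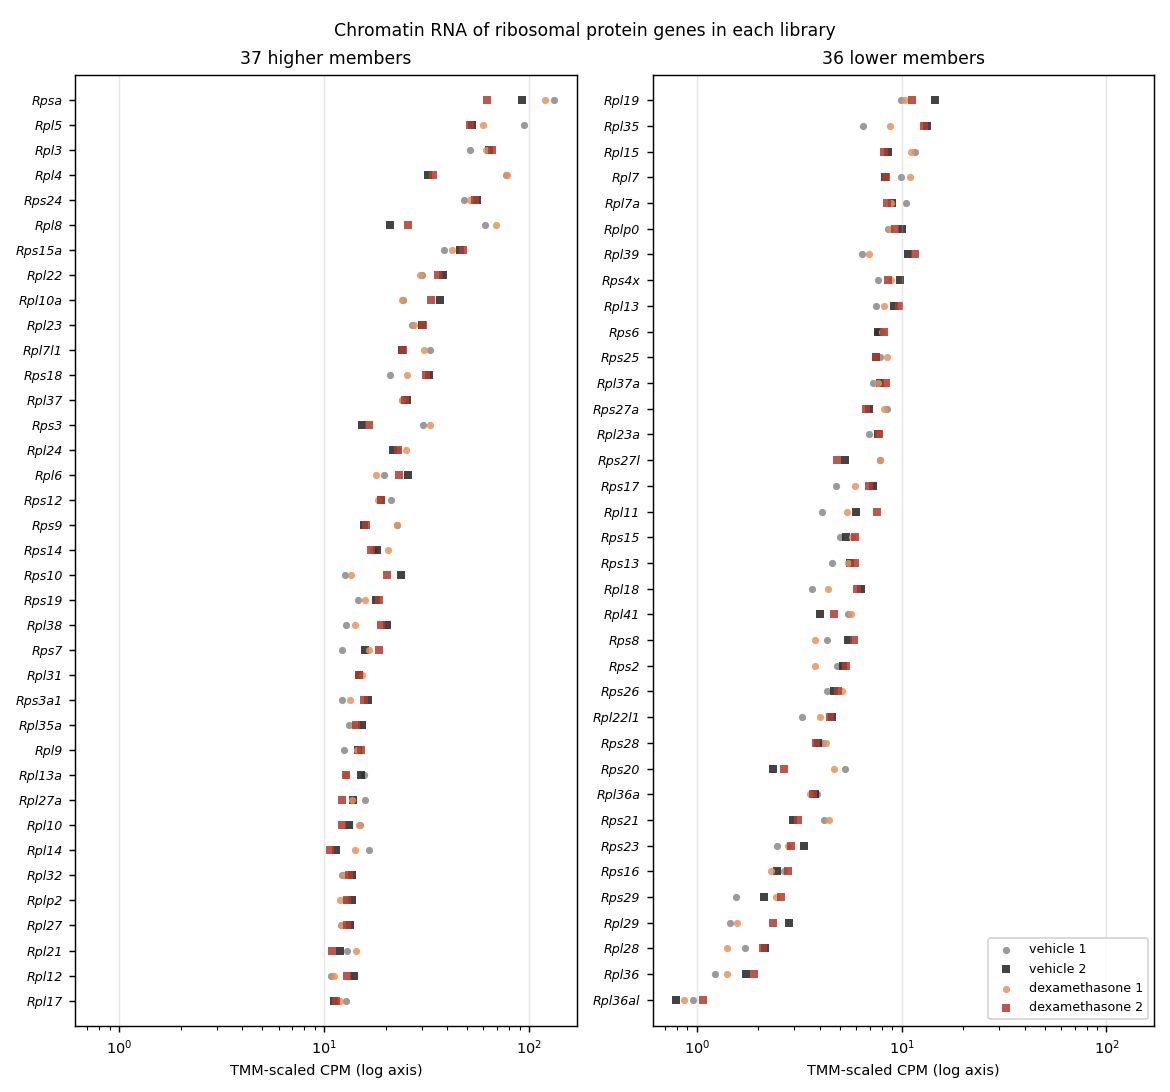
TMM-scaled CPM (log axis) of 73 of the 76 members in each of the 4 libraries, ordered by mean CPM, with the higher 37 on the left and the lower 36 on the right. Circles are libraries numbered 1 and squares those numbered 2, greys are vehicle and reds dexamethasone. In Rpl8, Rpl4 and Rps3 the circles lie together to the right of the squares, and in Rpl13a the red symbols lie to the left of the grey ones.

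The P stalk of the 60S subunit, which recruits translation factors, is built from Rplp0 and dimers of Rplp1 and Rplp2. Rplp0 had 8.63 and 10.0 CPM in vehicle and 8.80 and 9.27 CPM in dexamethasone. Rplp2 had 12.7 and 13.7 CPM in vehicle and 12 and 12.9 CPM in dexamethasone. Both genes overlapped between the groups. Rplp1 was listed at 0 in every library and lies in a run of 371 neighbouring genes on the same strand of chromosome 9 without a count in any library, so its row says nothing of its transcription.

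Several ribosomal protein genes have a second functional copy, and 4 of these copies met the count minimum. Rpl7l1, a copy of Rpl7 known for a role in 60S assembly, had a log2 ratio of CPM to its parent of 1.74 and 1.54 in vehicle and 1.49 and 1.54 in dexamethasone. Rpl22l1 stood to Rpl22 at −3.21 and −3.06 in vehicle and −2.88 and −3.01 in dexamethasone, and Rpl36al to Rpl36a at −2 and −2.25 in vehicle and −2.04 and −1.79 in dexamethasone. These ratios are not corrected for gene length. The differences between groups in the 3 ratios were −0.13, 0.19 and 0.21. The groups overlapped for Rpl36al and met within 0.01 for Rpl7l1. For Rpl22l1 the groups did not overlap, with nearest values of −3.06 in vehicle and −3.01 in dexamethasone and SDs of 0.105 and 0.0918. Rpl36al (ENSMUSG00000049751) had the lowest CPM of all members, 0.965 and 0.790 in vehicle and 0.867 and 1.07 in dexamethasone, on 18 to 100 counts. Its log2 fold change was 0.16 (SE 0.366, edgeR adjusted p = 1), and it fell to −0.01 without dexamethasone 2. Rps27l, a copy of Rps27 and a p53 target, had 7.88 and 5.29 CPM in vehicle and 7.84 and 4.82 CPM in dexamethasone, which separates the replicate numbers and not the groups.

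The 10 genes that met the symbol rule but not the minimum were mostly empty rows. Rpl10l, Rpl26, Rpl32l, Rpl39l, Rplp1 and Rps4l were listed at 0 in every library, and Rps27 had a single count in dexamethasone 1. In vehicle 1 and 2 Rpl30 had 1 and 4 counts and Rpl34 had 4 and 4, and in dexamethasone 1 and 2 Rpl30 had 0 and 14 and Rpl34 had 7 and 11. Rpl3l, which takes the place of Rpl3 in mature striated muscle, had 4 and 3 counts in vehicle and 7 and 22 in dexamethasone. Its parent Rpl3, an abundant member, had 966 and 2421 counts in vehicle and 1845 and 6195 in dexamethasone. Core genes such as Rpl26, Rpl30, Rpl34 and Rps27 are needed in every cell, so their rows cannot be read as silence.

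Levels were compared between genes per kilobase of exon in GENCODE M21, although the way reads were assigned to genes is not given in the sources used here. As a mean over the 4 libraries, the median member had 5.87 CPM per kilobase of exon, and the range ran from 0.682 in Rpl36al to 32.5 in Rpl8. The highest means after Rpl8, which contributes to the peptidyl transferase centre, were those of Rpsa (32.1), Rpl38 (30.6), Rpl4 (27.5), Rpl24 (22.4) and Rpl3 (19.2). This order differed between replicate numbers. Rpl8 was first in both libraries numbered 1, at 44.7 CPM per kilobase in vehicle and 51.1 in dexamethasone, but had 15.4 and 18.9 in the libraries numbered 2, where Rpl38 was first at 37.4 and 35.2. At the low end stood Rps20 (0.922) and Rpl28 (1.00) besides Rpl36al. These values thus differed widely between genes whose products the ribosome holds in equal number. They depend on the annotated exon length, which ran from 0.383 to 6.27 kilobases over the members (4080 bases in Rps20, 542 in Rpl38). How far the differences come from this length or from the assignment of reads was not tested. By CPM alone the lowest after Rpl36al were Rpl36 (1.23, 1.74, 1.40 and 1.89 CPM in vehicle 1, vehicle 2, dexamethasone 1 and dexamethasone 2) and Rpl28 (1.72, 2.16, 1.40 and 2.10 CPM in that order), and both overlapped between the groups.

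The libraries of the members were set apart by replicate number more than by treatment. Across the 76 members, log2 CPM correlated at r = 0.989 and 0.992 between libraries with the same number and at 0.932 and 0.950 between libraries of the same group, where the points of a library share its depth and composition. The log2 ratio of replicate 2 to replicate 1 had a median of 0.11 in vehicle and 0.06 in dexamethasone. It had the same sign in both groups in 68 of 76 members (89.5%), 42 up and 26 down, against 83.3% of all tested genes with at least 10 counts in every library. Its size exceeded 0.5 on average over the groups in 19 members (25%), close to the 24% of those genes. By comparison, the log2 ratios of dexamethasone to vehicle in the 2 numbers correlated at r = 0.36 across the members, with medians of 0.06 and −0.03.

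Rpl8 (ENSMUSG00000003970) had the widest gap between replicate numbers, with 60.8 and 20.9 CPM in vehicle and 69.4 and 25.7 CPM in dexamethasone. Both libraries numbered 1 were above both numbered 2, and its fitted log2 fold change of 0.22 (SE 0.695, edgeR adjusted p = 1) turned to −0.66 without dexamethasone 1 and to −0.35 without vehicle 2. Rpl4, whose product reaches into the exit tunnel, had 77.0 and 32.0 CPM in vehicle and 77.9 and 34.1 CPM in dexamethasone. In Rpl4 the treated and control libraries of one number were nearly equal, while in Rpl8 the log2 ratio of dexamethasone to vehicle was 0.19 between the libraries numbered 1 and 0.30 between those numbered 2.

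Rps3, at the entry of the messenger RNA channel of the 40S subunit, had 30.5 and 15.3 CPM in vehicle and 32.9 and 16.5 CPM in dexamethasone. Rps20, in the 40S head, had 5.31 and 2.37 CPM in vehicle and 4.70 and 2.67 CPM in dexamethasone. The mean log2 ratio of replicate 2 to replicate 1 was −1.49 in Rpl8, −1.23 in Rpl4, −0.99 in Rps3 and −0.99 in Rps20. The 13 myotube markers were also lower in the libraries numbered 2, Mymk and Tnnt3 only slightly so, with median log2 ratios of −1.37 in vehicle and −1.27 in dexamethasone, and whether they bear on these ribosomal protein genes was not tested.

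Opposite shifts were seen in Rpl35, Rpl29, Rpl39 and Rps10, with mean log2 ratios of 0.80, 0.78, 0.75 and 0.75. Rpl35, a 60S protein beside the exit tunnel, had 6.49 and 13.3 CPM in vehicle and 8.74 and 12.9 CPM in dexamethasone. Rpl29, a small 60S protein, had 1.45 and 2.82 CPM in vehicle and 1.57 and 2.37 CPM in dexamethasone. Rpl39, which lines the exit tunnel, had 6.38 and 10.8 CPM in vehicle and 6.90 and 11.6 CPM in dexamethasone, and Rps10, in the 40S head, had 12.7 and 23.8 CPM in vehicle and 13.5 and 20.3 CPM in dexamethasone. In all 4 genes both libraries numbered 2 exceeded both numbered 1, and the treatment groups overlapped.

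**Figure D3:**
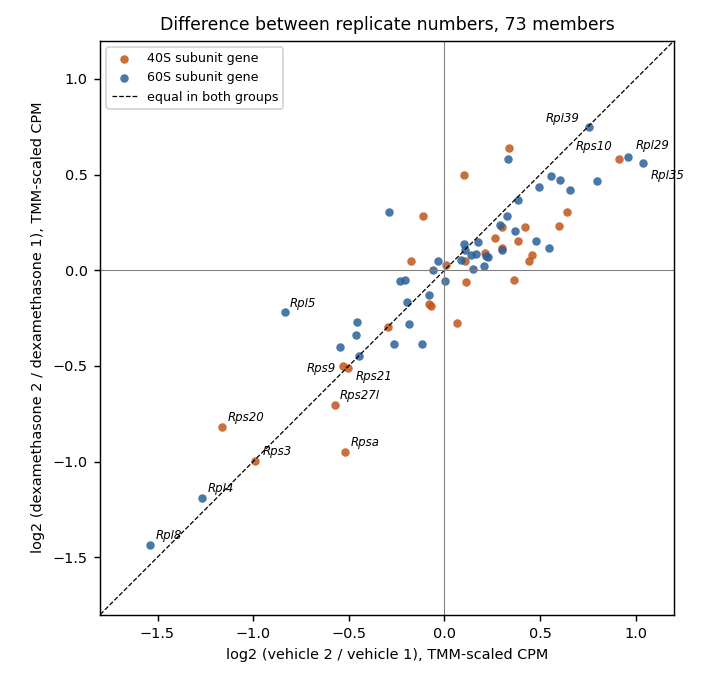
Log2 ratio of replicate 2 to replicate 1 in vehicle (x axis) and in dexamethasone (y axis) for 73 of the 76 members, coloured by subunit, with the line of equality dashed. Most points lie near the line, from Rpl8 at the lower left to Rpl35 at the upper right.

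These genes share sequence with their pseudogenes, so the assignment of reads between the copies is uncertain. The share of 50-base words of a member's transcripts also found in transcripts of other genes (GENCODE M21) had a median of 35.8% and ran from 0% to 95.1%, the highest being that of Rpl35. Words were matched on either strand and to any other gene. The share therefore also counts genes that overlap on the opposite strand and is not a measure of pseudogenes alone. In the 6 members with the lowest replicate ratios (Rpl8, Rpl4, Rps3 and Rps20 among them) the median share was 6.94%, and in the 6 with the highest it was 29.1%. Across all 76 members the share and the mean replicate ratio correlated at r = 0.36 (Spearman's rho 0.28), and at r = 0.32 (rho 0.30) with words of 100 bases. The share and the log2 fold change of dexamethasone over vehicle correlated at r = −0.06 (rho −0.08). The points share the same 4 libraries, and these values are a description. None of the members overlapped another counted gene on the same strand, and 15, Rpl35 among them, overlapped one on the opposite strand.

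**Figure D4:**
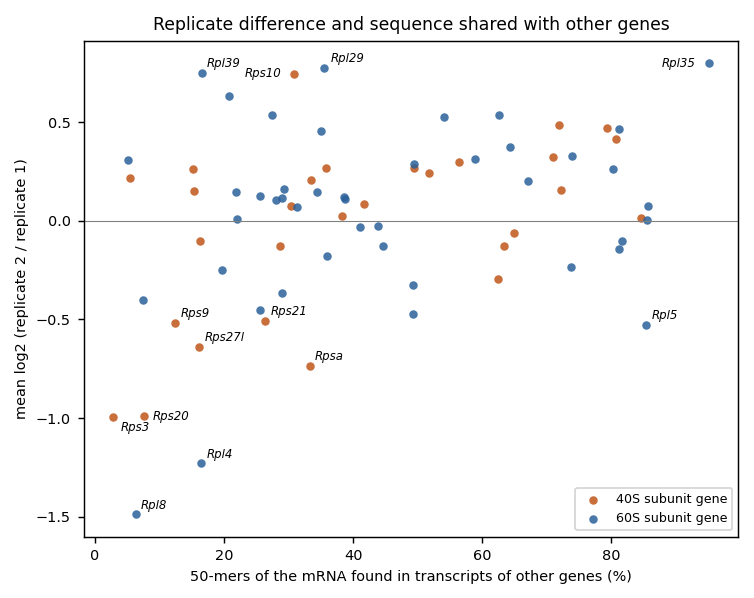
Share of 50-base words of 73 of the 76 members found in transcripts of other genes (x axis, percent) against the mean log2 ratio of replicate 2 to replicate 1 (y axis), coloured by subunit. The lowest ratios drawn, of Rpl8, Rpl4, Rps3 and Rps20, are at shares under 20%, and Rpl35 has both the highest share and the highest ratio.

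Genes that host snoRNAs were set beside those that do not, a grouping chosen after the fold changes were known. In GENCODE M21, 29 members contain a snoRNA gene on their own strand, 57 snoRNAs in all, of which 31 had a row in the table, each listed at 0 in every library. How reads within a host gene were assigned is not given, so these rows cannot be read as silence of the snoRNAs. Among the 29 hosts, 19 log2 fold changes were below 0 and 10 above, with a median of −0.04. Among the other 47 members, 17 were below 0 and 30 above, with a median of 0.06. By replicate number the median log2 ratios were −0.08 and −0.04 in hosts and 0.11 and −0.03 in the others, so the separation was seen between the libraries numbered 1 and hardly between those numbered 2. Of the 6 members with the lowest log2 fold change, 5 host snoRNAs (Rpl5, Rpsa and Rpl13a among them), and of the 6 with the highest, 0 do. Rpl13a carries 4, Snord32a, Snord33, Snord34 and Snord35a. The number of snoRNAs in a member correlated with its log2 fold change at r = −0.33 (rho −0.32, n = 76).

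**Figure D5:**
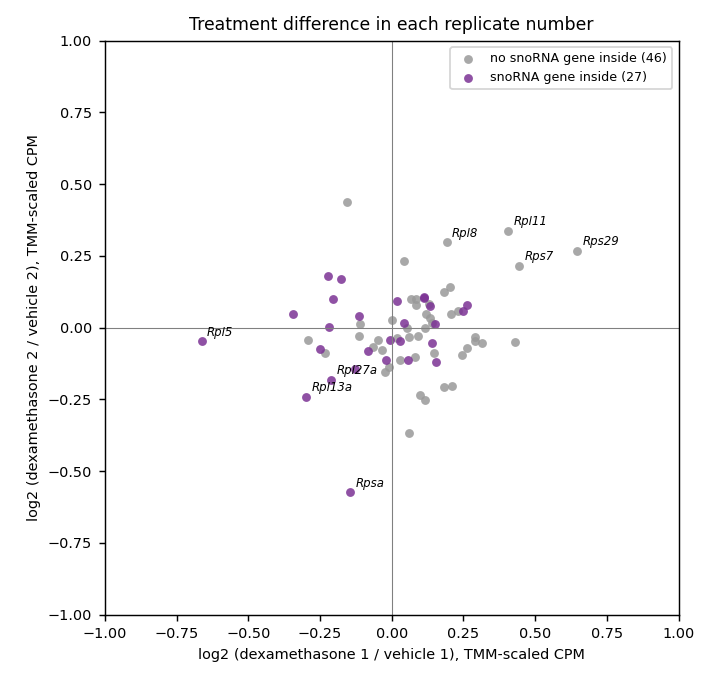
Log2 ratio of dexamethasone to vehicle between the libraries numbered 1 (x axis) and between those numbered 2 (y axis) for 73 of the 76 members, with the 27 of these that contain a snoRNA gene in purple and the 46 others in grey. Most points lie within 0.5 of 0 on both axes, Rpl13a is below 0 on both (−0.30 and −0.24), and Rpl5 is low in the libraries numbered 1 alone.

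Genes that act with the ribosomal proteins were taken from lists. In the edgeR quasi-likelihood test by group only, 0 of their tested genes passed. An unadjusted p under 0.05 was reached by 0 of them, against 5.78% of all tested genes. With the replicate number added as a block 5 of them passed, against 12.7% of all tested genes. Among ribosomal genes outside the symbol rule, Fau (fused to a ubiquitin-like protein) and Rack1 (a 40S scaffold protein) had log2 fold changes of −0.00 and 0.07, and Rack1 had 123 and 82.5 CPM in vehicle and 131 and 85.1 CPM in dexamethasone. A list of other genes whose messenger RNAs begin with a TOP motif, mostly translation factors, had a median of 0.08 over 15 tested of 16, with 12 above 0 and 3 below. Both dexamethasone libraries were above both vehicle libraries in 3 of them (20%, against 15% of all tested genes) and below in 1 (6.67%, against 12.9%), Nap1l1, a histone chaperone at 81.0 and 94.8 CPM in vehicle and 68.5 and 78.8 CPM in dexamethasone. Eef1a1 was listed at 0 throughout.

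Ribosomal RNA synthesis and assembly factors had small values of the same order. RNA polymerase I and its factors had a median log2 fold change of 0.03 over 14 genes, with 1 above and 1 below by library (7.14% each, against 15% and 12.9% of all tested genes), and Polr1a, the largest subunit, had 124 and 122 CPM in vehicle and 121 and 117 CPM in dexamethasone. Factors of ribosomal RNA processing and subunit assembly had a median of 0.11 over 47 genes, with 40 above 0 and 7 below. Their log2 fold changes ran from −0.19 to 0.32. In 8 of the 47 (17.0%) both dexamethasone libraries were above both vehicle libraries, against 15% of all tested genes, and in 0 they were below, against 12.9%. Nop14, of the small-subunit processome, had 35.2 and 36.0 CPM in vehicle and 47.0 and 40.7 CPM in dexamethasone, and Sbds, which acts in 60S maturation, had 23.9 and 27.1 CPM in vehicle and 31.7 and 30.2 CPM in dexamethasone. Neither passed the test.

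Regulators of ribosomal protein output showed a wider range. Both dexamethasone libraries were above both vehicle libraries in 6 of 16 (37.5%) and below in 1 (6.25%), against 15% and 12.9% of all tested genes. The median log2 fold change was 0.07, with 10 genes above 0 and 6 below and a range of −0.36 to 0.69. The 3 genes described next are the highest of the list. Myc, a transcription factor that drives ribosome production, had 30.1 and 19.9 CPM in vehicle and 48.1 and 32.7 CPM in dexamethasone. Eif4ebp2, a repressor of cap-dependent translation under mTOR, had 29.5 and 35.2 CPM in vehicle and 40.7 and 42.6 CPM in dexamethasone, and Mxd4, a partner of Max that opposes Myc, had 36.4 and 51.6 CPM in vehicle and 56.8 and 64.8 CPM in dexamethasone. All 3 had treated libraries above both controls, with log2 fold changes of 0.69, 0.36 and 0.47 and edgeR adjusted p of 0.977, 0.951 and 1.

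Other constitutive complexes were set beside the members, with the treated libraries above both controls in 15% and below them in 12.9% of all tested genes. Mitochondrial ribosomal protein genes had a median log2 fold change of 0.04 over 75 genes, with 8 above (10.7%) and 7 below (9.33%). Proteasome subunit genes had a median of 0.06 over 35, with 7 above (20%) and 1 below (2.86%). The cytosolic ribosomal protein genes had 9.21% above and 6.58% below. A further list held genes linked in people to Diamond-Blackfan anaemia, an inherited failure of red cell production, and need not be complete. Its 13 members had a median of 0.03, with 3 above (23.1%, namely Rps7, Rps26 and Rps29) and 0 below. Differences between these lists were not tested.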

How the data were processed

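Counts per gene for 4 libraries were taken from 1 table deposited by the authors, in raw read counts. TopHat2 2.0.13, SAMtools 1.1, HTSeq 0.6.1, DESeq2 1.18.1 and build mm9 are named per the submitters' processing notes; the annotation, the counting mode and the use of strand are not given in the sources used here. The labels' protocols name both a stranded total RNA kit and a stranded mRNA kit. Of 23333 rows, 51 repeats were dropped, and 26 rows that share a symbol but hold other counts were kept. Groups and replicate numbers came from the sample titles.

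Genes passing filterByExpr (minimum count 10, total 15) were tested by dexamethasone against vehicle with edgeR 4.0.16 in R 4.3.3 (TMM, quasi-likelihood test, group only, two-sided, residual df 2), with Benjamini-Hochberg adjustment over all 13285 and a threshold of 0.05. Shares carry Wilson intervals. The scripts were tested on simulated data. Alternatives were other scalings and filters, DESeq2 1.42.0, limma-voom (limma 3.58.1), edgeR's likelihood ratio test, a replicate block, a threshold of 0.1, other member rules and leaving out each library.

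Members and gene lists were chosen with earlier results of these data known, so a list's count is no independent evidence. The genes named were the 6 members with the highest and the 6 with the lowest log2 fold change, 5 and 5 by CPM, 4 and 4 by replicate ratio, the stalk, copy, parent and 5S genes, and the 3 highest and 3 lowest of each pathway list. A few genes that this rule or a list named are not reported here, and 3 members are left out of the plots. Other members named were chosen after their values were seen. GENCODE M21 (GRCm38) gave lengths, snoRNAs and shared sequence, and RefSeq (GRCm38.p6) the start windows; no coordinate was moved between builds.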

Additional observations from a re-analysis of the deposited data

How the results depend on the processing

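The number of members called was 0 under every scaling, filter, test, threshold and member rule tried and with each library left out, except with the replicate number as a replicate block. The labels number the libraries alike in both groups but tie no number to a shared culture or day, and with 2 pairs the numbers were not taken as a pairing; replicate differences correlated between the groups at r = 0.913 over the members and 0.800 over all genes. The block called 1 member, 5 genes of the pathway lists and 1681 of all tested genes (12.7%), on 1 residual degree of freedom. Over all genes 5 were called; the number was 23 with every gene that had a count, 289 with DESeq2's Wald test, 288 with edgeR's likelihood ratio test, 0 with limma-voom, and 4 to 193 with each library left out in turn, where the lone library of a group is assumed to vary like the other group. Members with both treated libraries above both controls went from 7 to 0 with library size only, against 11.3% of all tested genes. They were 4 among the 56 with at least 100 counts, against 15% of all tested genes. Under these settings the median replicate ratio went from 0.11 to 0.296 and 0.074. Of the 12 members with the highest and lowest log2 fold changes, the only members whose refitted values were listed, left-out libraries reversed 5, which ran from −0.76 to 0.0667 in Rpl5, −0.66 to 1.182 in Rpl8 (also −0.35), −0.42 to 0.13 in Rpl19, −0.0117 to 0.31 in Rpl36al and −0.85 to 0.092 in Rpsa. The causes were not tested. The members' median ran from −0.02 to 0.08 and the difference in their share of counts from −0.00992 to −0.00257 percentage points. Of the other values of these 12, 119 kept direction and side of the threshold under other settings and 42 did so with a library left out. Depth limits Rpl36al, Rpl36, Rpl29 and Rps29 most, with 18 to 29 counts in vehicle 1.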
